A study of Mus musculus with 12 samples.

Results

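The 10 genes described here, Cxcl12, Cxcr4, Astn1, Sema6a, Plxna2, Unc5b, Unc5c, Dcc, Bdnf and Ntrk2, encode ligands, receptors and adhesion proteins that guide cerebellar granule cells as they migrate. They were chosen by name, all 10 were measured on Affymetrix mouse expression arrays by 29 probe sets, and they stand among 18193 genes with a value. Each gene has the mean log2 level of its own probe sets, leaving out those that map to several genes and those whose names end in the suffixes s or x. Cxcr4, Astn1 and Plxna2 lie on chromosome 1, Bdnf on 2, Unc5c on 3, Cxcl12 on 6, Unc5b on 10, Ntrk2 on 13, and Sema6a and Dcc on 18 (GRCm38.p6). The arrays comprised medulloblastomas (MBs) of 8 mice, cerebellar granule progenitor cells (CGNPs) of 2 mice and whole cerebellum (WC) of 2 mice, with 1 array per mouse, and samples are named by group and mouse number. All 8 MBs arose in Nestin-Cre p53-/- mice with conditional Xrcc4 alleles, c/- in 6 mice and c/c in 2 mice (MB_706 and MB_1206). Nestin-Cre acts in nestin-expressing neural progenitors, so the deletion is not restricted to the granule lineage. The study describes the CGNP and WC mice as control animals matched in age and genotype, and the labels give neither their alleles nor the age of any animal. The labels call the MB samples tumor tissue, whereas the study's methods list 6 of the 8 among cultured MB cells.

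Granule cell progenitors proliferate in the external granule layer on the surface of the cerebellum, held there by the chemokine CXCL12 from the meninges, which acts on the receptor CXCR4. Cells that leave the cell cycle lose this anchor, extend axons tangentially, and then move inward along the fibres of Bergmann glia. Astrotactin joins the neuron to the glial fibre, the semaphorin SEMA6A and its receptor plexin A2 allow the switch from tangential to radial movement, netrin receptors steer cells and axons, and BDNF, through its receptor TrkB (gene Ntrk2), promotes the exit from the external layer.

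Levels are on the log2 scale, where a difference of 1 is a 2-fold change, and the lowest value on the arrays is 2.20, the floor. Array medians ran from 3.76 to 3.90. Marker genes of granule progenitors averaged 10.04 to 10.50 in the MBs, 7.65 to 7.86 in the CGNPs and 5.37 to 5.38 in WC. Among them the transcription factor Atoh1, which defines the granule lineage, averaged 11.95 in the MBs, 5.95 in the CGNPs and 2.76 in WC. Not all 8 genes of this list kept that order. Gli1 averaged 9.10 in the MBs, 2.30 in the CGNPs, close to the floor, and 3.50 in WC. Zic1 averaged 13.51, 13.80 and 13.87. The CGNP samples held markers of other cells as well: the mean of 8 astrocyte and Bergmann glia genes was 8.55 and 8.58 in the CGNPs, against 9.50 and 9.62 in WC, and that of 7 genes of meninges and mesenchyme was 6.63 and 6.86 in the CGNPs, against 4.42 and 4.52 in WC. In such bulk samples, fewer cells of a type and less RNA per cell cannot be told apart. MB_706 stood apart in RNA quality, with control probe sets at the 3′ end 2.93 above those at the 5′ end, against 0.56 to 0.82 in the other MBs, 0.15 and 0.23 in the CGNPs and 0.48 and 0.52 in WC. MB_630 had the highest marker means for mature granule neurons, Purkinje cells, interneurons, endothelial cells, oligodendrocytes and meninges, and MB_1207 the lowest for granule progenitors, mature granule neurons, Purkinje cells, astroglia and oligodendrocytes. Each member's difference without MB_630, MB_706 or MB_1207 is therefore given where it matters. P-values set each difference against an estimate of the spread between mice that the 3 groups share. Most of the arrays behind that estimate are MBs, so p-values between CGNPs and WC also depend on the MBs.

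**Figure D1:**
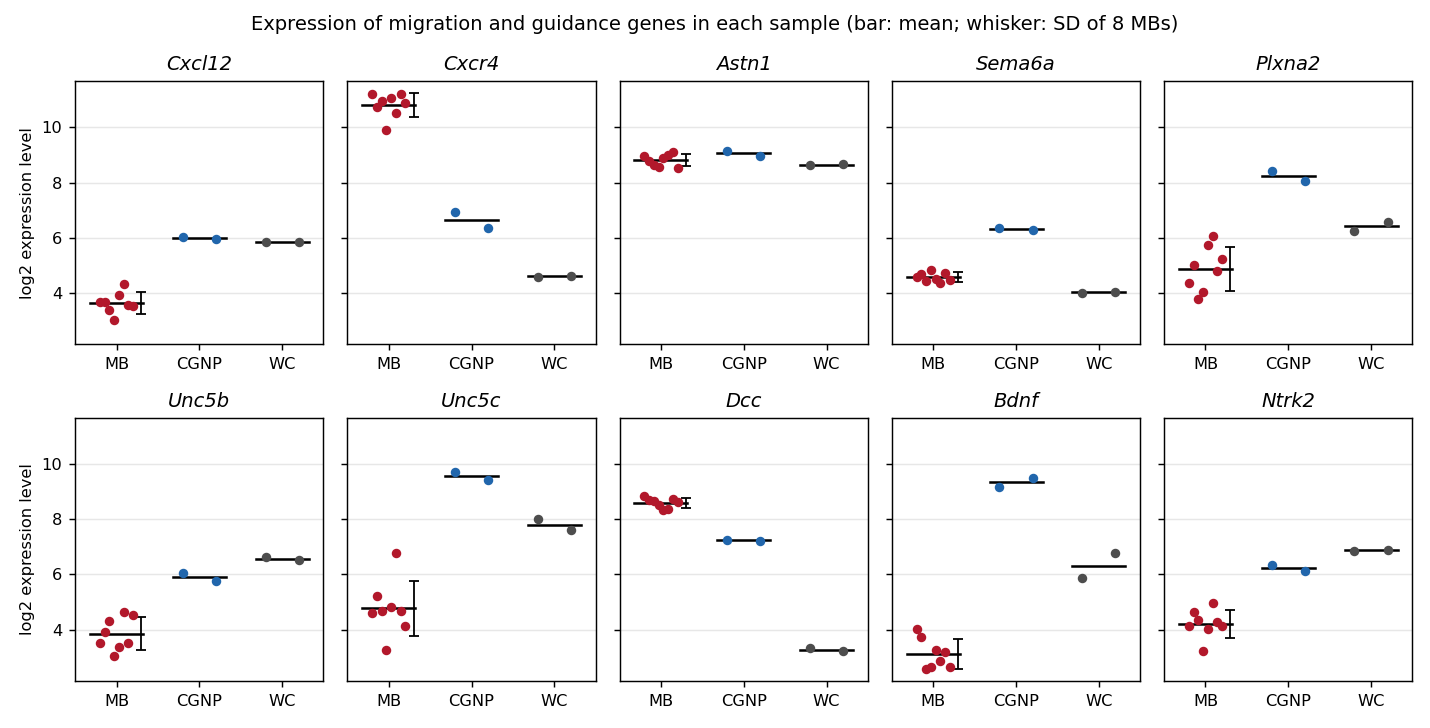
Log2 expression level (y axis) of the 10 genes in each of the 8 MBs, 2 CGNP and 2 WC samples (points), with group means (bars) and the SD of the 8 MBs (whiskers). Cxcr4 and Dcc are highest in the MBs, Bdnf and Unc5c are highest in the CGNPs and lowest in the MBs, and Astn1 is the 1 gene whose MBs overlap both normal groups.

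In the MBs, 9 of the 10 genes differed from the CGNPs and 9 from WC, in most cases toward lower levels. Against the CGNPs, Cxcr4 and Dcc were higher, 7 genes were lower (Cxcl12, Sema6a, Plxna2, Unc5b, Unc5c, Bdnf and Ntrk2), and Astn1 did not pass the test (limma, adjusted p under 0.05 over all genes). Over all genes, 37.3% passed in this comparison, 18.7% higher and 18.6% lower. Against WC, Cxcr4, Dcc and Sema6a were higher, 6 genes were lower, and Astn1 again did not pass, where 44.0% of all genes passed, 22.2% higher and 21.8% lower. The median log2 difference of the 10 genes was -2.04 against the CGNPs and -1.88 against WC, while the median of all genes was 0.0 in each case. Between the normal tissues, 4 genes were higher in the CGNPs than in WC (Cxcr4, Sema6a, Dcc and Bdnf), none was lower, and 6 did not pass, where 28.5% of all genes passed, 14.9% higher and 13.6% lower. The MBs did not overlap the CGNPs for 9 of the 10 genes, against 41.7% of all genes, nor WC for 9 of the 10, against 46.9%. CGNPs and WC, with 2 samples each, did not overlap for any of the 10 genes, against 59.3% of all genes. All 10 genes were above a log2 level of 5 in at least 2 samples, as were 9905 of all genes. With only those 9905 fitted, 5996 passed between MBs and CGNPs (3201 higher, 2795 lower). Between MBs and WC 6847 passed (3799 higher, 3048 lower), and between CGNPs and WC 4407 (2426 higher, 1981 lower). The shares called over all genes are therefore below those of genes above this level. The 3 comparisons share their samples, and the genes are not independent of each other.

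**Figure D2:**
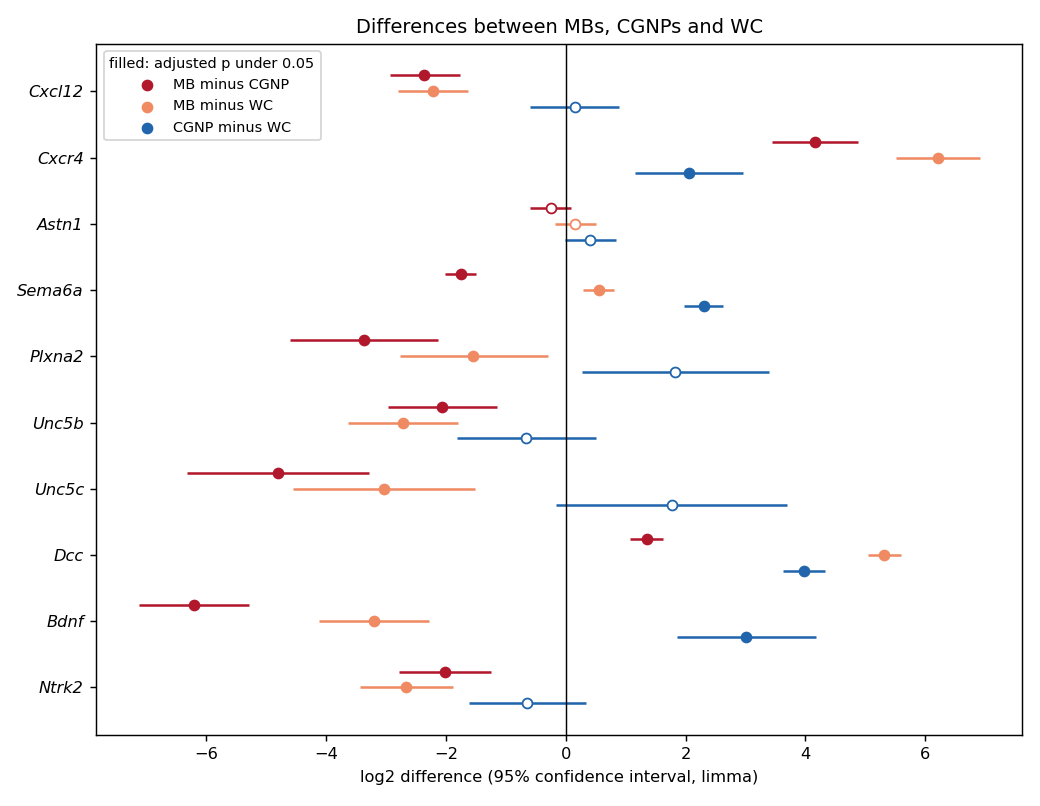
Log2 difference (x axis) with its 95% confidence interval from limma for each gene (y axis) in 3 comparisons, with filled points for an adjusted p under 0.05. Bdnf against the CGNPs (-6.21) and Cxcr4 against WC (6.21) lie farthest from 0, and the intervals of Astn1 include 0 in all 3 comparisons.

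The promoters of the chemokine pair and of the UNC5 receptors are shown because the ligand and the receptor of the pair moved in opposite directions in the tumors and both UNC5 genes were low there. Each is the run of 250 bases just before the RefSeq start of the gene on GRCm38.p6, 5′ to 3′ on the strand of the gene, in lower case with motif matches in capitals. Cxcr4 lies on the minus strand at chr1:128592300-128592549, Cxcl12 on the plus strand at chr6:117168285-117168534, Unc5b on the minus strand at chr10:60831582-60831831 and Unc5c on the plus strand at chr3:141465314-141465563.
Cxcr4: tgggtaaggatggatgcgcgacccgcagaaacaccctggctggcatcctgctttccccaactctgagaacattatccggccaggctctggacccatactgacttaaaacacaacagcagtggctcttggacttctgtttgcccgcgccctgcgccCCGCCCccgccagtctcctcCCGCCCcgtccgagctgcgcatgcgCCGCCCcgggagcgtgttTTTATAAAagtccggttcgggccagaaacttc
Cxcl12: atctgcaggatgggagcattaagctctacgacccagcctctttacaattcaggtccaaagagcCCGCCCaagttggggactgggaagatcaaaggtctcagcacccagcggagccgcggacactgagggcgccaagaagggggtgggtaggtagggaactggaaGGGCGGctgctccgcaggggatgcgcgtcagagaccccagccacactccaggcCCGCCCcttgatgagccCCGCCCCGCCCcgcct
Unc5b: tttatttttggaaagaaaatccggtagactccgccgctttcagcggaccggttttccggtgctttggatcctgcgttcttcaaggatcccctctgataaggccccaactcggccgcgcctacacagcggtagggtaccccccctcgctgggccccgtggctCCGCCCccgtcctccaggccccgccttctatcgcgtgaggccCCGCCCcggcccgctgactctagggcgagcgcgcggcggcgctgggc
Unc5c: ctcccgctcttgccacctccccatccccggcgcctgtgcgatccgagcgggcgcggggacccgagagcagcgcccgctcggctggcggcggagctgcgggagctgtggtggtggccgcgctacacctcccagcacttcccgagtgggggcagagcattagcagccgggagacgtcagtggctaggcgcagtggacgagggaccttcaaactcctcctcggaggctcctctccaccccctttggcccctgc
Capitals mark, on either strand, the GC box GGGCGG and the TATA box TATAAA, both chosen after the sequences had been seen. In Cxcr4, TATA box matches on both strands overlap, beginning 32 and 30 bases before the start. Of 32851 windows of this length, 32.7% hold the GC box and 12.4% the TATA box. Among the 8 of the 10 genes with a RefSeq promoter entry (14 windows, 7 of them of Bdnf), the GC box was found in 5 (Bdnf, Cxcl12, Cxcr4, Plxna2 and Unc5b) and the TATA box in Cxcr4 alone. These are counts of genes with a match in any window, so they cannot be set against the shares of windows. The MYC E-box CACGTG (6.02% of windows) and the GLI site GACCACCCA (0.225%) were found in none of the 8. In base composition the windows ran from 39.2% G and C in 1 Bdnf window to 71.2% in Unc5c, where all windows had a median of 52.4%. Sema6a and Dcc are named only.

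The receptor Cxcr4 was far higher in the tumors, while its ligand Cxcl12 was lower. Cxcr4 levels ran from 9.91 through a median of 10.92 to 11.22 in the MBs, against 6.95 and 6.36 in the CGNPs and 4.57 and 4.63 in WC. The groups did not overlap, and the lowest tumor, MB_1207, stood well above the higher CGNP sample. The log2 difference was 4.16 against the CGNPs (standard error 0.315, 17.9-fold, adjusted p = 5.3e-06 from limma) and 6.21 against WC (74.3-fold, adjusted p = 1.6e-07). Only 0.489% of all genes rose more against the CGNPs and 0.335% against WC. Progenitors in turn exceeded WC by 2.05 (standard error 0.398, adjusted p = 0.0034) under the fit over all samples, while the equal-variance test of the study's methods did not pass this step (adjusted p = 0.0857). The order of levels was MB, CGNP, WC.

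Microglia also use Cxcr4, and their markers were higher in the MBs, as Cxcr4 was. Between the normal tissues the markers went the other way, with a lower mean in the CGNPs than in WC. All 8 microglial genes were higher in the MBs than in the CGNPs and 5 of 8 were higher than in WC, with a mean level of 6.89 to 8.50 in the MBs, 3.47 and 4.67 in the CGNPs and 5.81 and 5.99 in WC. Over all genes, 18.7% were higher than in the CGNPs and 22.2% than in WC. None of the 8 microglial genes was near the floor in all MBs. The part of microglia in the level of Cxcr4 was not tested. MB_1224, with the lowest microglial mean (6.89), had a Cxcr4 level of 11.07, and MB_1207, with the next lowest (7.12), had the lowest Cxcr4 of the MBs (9.91).

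Cxcl12 levels were 3.01 to 4.32 in the MBs, with a median of 3.61, against 6.04 and 5.94 in the CGNPs and 5.84 and 5.85 in WC. Every tumor lay below every normal sample. The log2 difference was -2.36 against the CGNPs (standard error 0.261, adjusted p = 6.5e-05 from limma) and -2.21 against WC (standard error 0.261, adjusted p = 6.6e-05). CGNPs and WC differed by 0.15 (95% confidence interval -0.60 to 0.89, adjusted p = 0.952), while its probe sets disagreed. Probe set 1448823_at was higher in the CGNPs, with means of 6.17 in the MBs, 10.30 in the CGNPs and 8.25 in WC. Probe set 1417574_at had the opposite order of normal tissues, 5.47 in the CGNPs and 7.08 in WC, and lay at 2.42 to 2.60 in the MBs, close to the floor, so that its differences there are lower bounds. The remaining Cxcl12 probe set, 1439084_at, was at the floor in all samples and pulls the gene value down. Averaging only probe sets above a log2 level of 5 in 2 samples, a setting added after seeing the data, gave -3.54 against the CGNPs and -3.32 against WC. Both informative probe sets were lower in every tumor than in every normal sample. For 1448823_at this was narrow against WC, with MB_630 at 8.16 and WC_2647 at 8.20. Taken alone, that probe set differed from WC by -2.09 (adjusted p = 0.0494 from limma).

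In the developing cerebellum Cxcl12 comes from the meninges, and markers of meninges and mesenchyme were lower with it in the MBs against the CGNPs. They followed it less against WC. Between the normal tissues the Cxcl12 probe sets went opposite ways, with 1448823_at higher in the CGNPs and 1417574_at lower, so the gene value hardly differed. Of 7 markers, 3 were higher in the CGNPs than in WC and none lower, beside 14.9% and 13.6% of all genes. All 7 were lower in the MBs than in the CGNPs and 2 of 7 than in WC, with a mean of at most 4.01 in 7 MBs and 5.96 in MB_630, against 6.63 and 6.86 in the CGNPs and 4.42 and 4.52 in WC. Over all genes, 18.6% were lower than in the CGNPs and 21.8% than in WC. The collagen gene Col1a1, for example, averaged 2.48 in the MBs, 6.04 in the CGNPs and 2.58 in WC. MB_630 was highest among the MBs for this marker mean and for Cxcl12 (4.32). Its marker mean was above both WC samples, while its Cxcl12 level was below both (5.84 and 5.85). The part of these cells in the level of Cxcl12 was not tested. Without MB_630 the log2 difference of Cxcl12 was -2.45 against the CGNPs and -2.31 against WC.

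Astn1, which encodes the neuronal adhesion protein astrotactin of glial-guided migration, was the member that did not pass in any comparison. Its levels ran from 8.54 through a median of 8.83 to 9.11 in the MBs, against 9.15 and 8.98 in the CGNPs and 8.64 and 8.66 in WC. The tumors overlapped both normal groups. Differences were -0.25 against the CGNPs (95% confidence interval -0.59 to 0.08, adjusted p = 0.238 from limma) and 0.16 against WC (-0.18 to 0.50, adjusted p = 0.496), and 0.41 between CGNPs and WC (-0.01 to 0.84, adjusted p = 0.148). Astn1 was read by a single probe set.

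Sema6a, the transmembrane semaphorin, and Plxna2, which encodes its receptor plexin A2, were both highest in the CGNPs. Sema6a levels were 4.36 to 4.85 in the MBs (median 4.54), against 6.36 and 6.28 in the CGNPs and 4.00 and 4.04 in WC. The tumors lay between the normal tissues without overlap. Sema6a was lower than in the CGNPs (log2 difference -1.75, standard error 0.116, adjusted p = 2.2e-06 from limma) and higher than in WC by 0.55 (standard error 0.116, adjusted p = 0.00287), and CGNPs exceeded WC by 2.30 (adjusted p = 2e-06). With only probe sets above a log2 level of 5 in 2 samples, the excess over WC was 0.95. It rested on probe set 1436458_at, which averaged 7.88 in the MBs, 9.27 in the CGNPs and 6.08 in WC. The other Sema6a probe sets differed from WC by -0.25 and 0.11 and stayed at or below 3.25 in every MB. All 3 were lower than in the CGNPs.

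Plxna2 levels were 3.77 to 6.06 in the MBs, with a median of 4.89, against 8.43 and 8.05 in the CGNPs and 6.26 and 6.56 in WC. The tumors were spread over more than 2 units, and the highest, MB_630, came close to the lower WC sample without reaching it. Against the CGNPs the log2 difference was -3.37 (standard error 0.549, 10.3-fold, adjusted p = 0.00081 from limma), and all 4 probe sets agreed, with differences from -3.93 to -2.76. Against WC it was -1.54 (standard error 0.549, adjusted p = 0.046), and this call was lost when any of 10 of the 12 samples was left out (differences from -1.69 to -1.38) and held without MB_630 or MB_1224. CGNPs and WC differed by 1.83, which did not pass (adjusted p = 0.0817 from limma). It passed without MB_630 (adjusted p = 0.0482), which is in neither group and enters this test only through the shared spread.

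**Figure D3:**
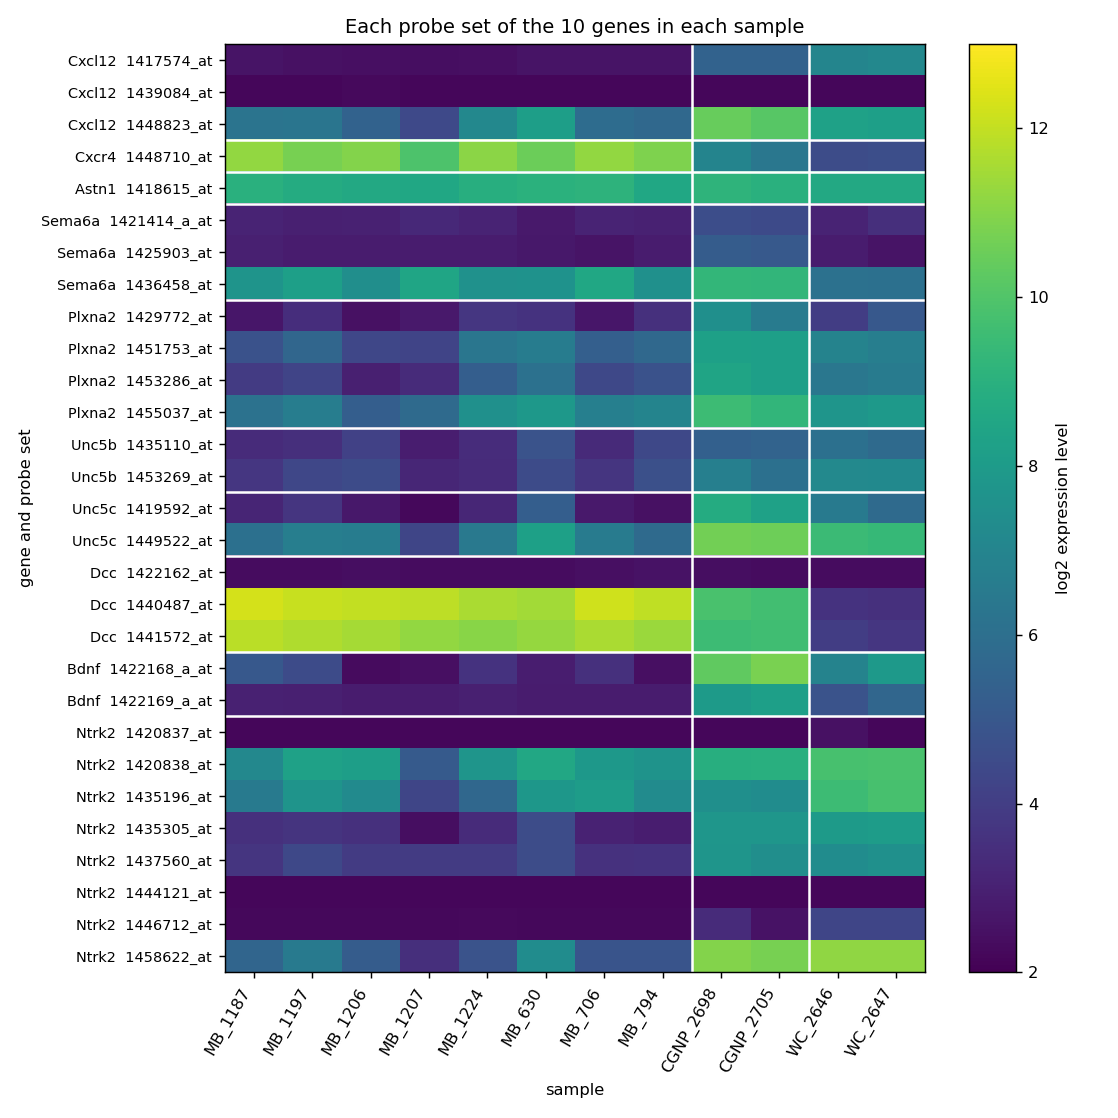
Log2 expression level (color) of each of the 29 probe sets of the 10 genes (rows) in each sample (columns, MBs left of CGNPs left of WC). Dark rows, such as Dcc 1422162_at and Cxcl12 1439084_at, lie at or close to the floor in all samples and lower the mean of their gene.

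The netrin receptors split: Dcc, whose product mediates attraction to netrin, was higher in the tumors, and Unc5b and Unc5c, whose products mediate repulsion, were lower. Dcc levels were 8.34 to 8.85 in the MBs, with a median of 8.63, against 7.26 and 7.23 in the CGNPs and 3.33 and 3.23 in WC. No group overlapped another. The log2 difference was 1.35 against the CGNPs (standard error 0.124, adjusted p = 1.9e-05 from limma) and 5.32 against WC (standard error 0.124, adjusted p = 5.6e-10), and CGNPs exceeded WC by 3.97 (adjusted p = 5.7e-08). Probe set 1422162_at was near the floor everywhere, which shrinks these values, and with only probe sets above a log2 level of 5 in 2 samples the differences were 2.01 against the CGNPs and 7.96 against WC. The other Dcc probe sets averaged 11.94 and 11.43 in the MBs, 9.77 and 9.58 in the CGNPs and 3.59 and 3.87 in WC.

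Unc5c, by gene value, had the largest fall among the receptors against the CGNPs. Its levels ran from 3.27 through a median of 4.68 to 6.77 in the MBs, against 9.71 and 9.44 in the CGNPs and 8.01 and 7.60 in WC. All tumors were below all normal samples, with MB_630 the highest and MB_1207 the lowest. Against the CGNPs the log2 difference was -4.80 (standard error 0.68, 27.9-fold, adjusted p = 0.00032 from limma), and 0.363% of all genes fell more. Against WC it was -3.04 (adjusted p = 0.00434), and CGNPs and WC differed by 1.77 (adjusted p = 0.166). With MB_630 left out, which enters that test only through the shared spread, the adjusted p was 0.0368. Without MB_630 the difference from the CGNPs was -5.09, and without MB_1207 it was -4.59.

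Unc5b levels were 3.04 to 4.65 in the MBs, with a median of 3.73, against 6.06 and 5.77 in the CGNPs and 6.63 and 6.52 in WC. The groups did not overlap, and both probe sets gave the same direction. Its log2 differences were -2.06 against the CGNPs (standard error 0.406, adjusted p = 0.0026 from limma) and -2.72 against WC (adjusted p = 0.00033), while CGNPs and WC differed by -0.66 (95% confidence interval -1.81 to 0.50, adjusted p = 0.427). Unc5b is also used by endothelial cells, whose 7 markers averaged 2.72 to 4.47 in the MBs, 2.55 and 2.62 in the CGNPs and 4.86 and 4.90 in WC. Of these, 4 were lower in the MBs than in WC and none of the 7 passed against the CGNPs. In the CGNPs, however, Pecam1, Cdh5, Kdr, Tek and Flt1 were close to the floor and could hardly be lower in the MBs. The count against the CGNPs therefore cannot be set against the fall of Unc5b there. Cldn5 and Esam were not close to the floor in the CGNPs, and their differences of 2.06 and 0.98 did not pass. Over all genes, 21.8% were lower than in WC and 37.3% passed against the CGNPs. MB_630 was highest for Unc5b and for the endothelial mean. The part of endothelial cells in the fall of Unc5b against WC was not tested.

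Bdnf and its receptor Ntrk2 were both lower in the tumors than in either normal tissue. Bdnf, a neurotrophin that draws granule cells inward, had levels of 2.58 to 4.03 in the MBs (median 3.03), against 9.16 and 9.51 in the CGNPs and 5.86 and 6.78 in WC. The groups were far apart, and the tumors lay toward the floor. The log2 difference was -6.21 against the CGNPs (standard error 0.411, adjusted p = 2.2e-06 from limma) and -3.20 against WC (adjusted p = 0.00012). Since 3 MBs (MB_1206 at 2.58, MB_1207 and MB_794 at 2.64) lay within 0.5 of the floor, both are lower bounds on the size of the fall. CGNPs exceeded WC by 3.01 (standard error 0.52, adjusted p = 0.00172), a step that did not pass under the equal-variance test of the study's methods (adjusted p = 0.0963). Probe set 1422168_a_at averaged 3.36 in the MBs, 10.56 in the CGNPs and 7.40 in WC, and reached 5.04 and 4.53 in MB_1187 and MB_1197. Probe set 1422169_a_at lay between 2.82 and 3.01 in all 8 MBs.

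Ntrk2 levels were 3.23 to 4.95 in the MBs (median 4.20), against 6.33 and 6.14 in the CGNPs and 6.86 and 6.89 in WC. By gene value, tumors and normal samples did not overlap. Differences were -2.02 against the CGNPs (standard error 0.343, adjusted p = 0.00105 from limma) and -2.66 against WC (adjusted p = 0.00012), while CGNPs and WC differed by -0.64 (95% confidence interval -1.61 to 0.34, adjusted p = 0.343). The 8 probe sets of Ntrk2 did not fall alike, and 2 were close to the floor in all samples. With only probe sets above a log2 level of 5 in 2 samples the differences were -3.09 against the CGNPs and -3.81 against WC. Probe set 1458622_at averaged 5.33 in the MBs, 10.84 in the CGNPs and 11.18 in WC, and 1435305_at averaged 3.38, 7.79 and 8.02. Probe set 1420838_at, with the highest signal over the 12 arrays, averaged 7.57 in the MBs, 8.91 in the CGNPs and 9.83 in WC, and taken alone it did not pass against the CGNPs (-1.34, adjusted p = 0.201). For 1435196_at the means were 6.83 in the MBs, 7.41 in the CGNPs and 9.67 in WC. Here MB_706 (8.08), MB_630 (7.83) and MB_1197 (7.69) were above both CGNP samples (7.48 and 7.33). Which transcripts of Ntrk2 each probe set reads was not analysed here.

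Astrocytes also use Ntrk2. The mean of 8 astrocyte and Bergmann glia genes was 5.63 to 8.16 in the MBs, 8.55 and 8.58 in the CGNPs and 9.50 and 9.62 in WC, with 4 of 8 genes lower in the MBs than in the CGNPs and 6 of 8 lower than in WC. Over all genes, 18.6% and 21.8% were lower in these comparisons. MB_1207 was lowest for the astroglial mean (5.63) and for Ntrk2 (3.23). MB_794, highest for that mean (8.16), had an Ntrk2 level of 4.12, below the MB median of 4.20. MB_630, highest for Ntrk2 (4.95), had a mean of 8.13. Mean levels of neuronal markers were also lower in the MBs than in WC. For mature granule neurons they were 5.47 to 8.12 in the MBs, 6.27 and 6.47 in the CGNPs and 10.94 and 11.10 in WC. For Purkinje cells they were 3.07 to 6.23, 4.65 and 4.51, and 10.91 and 11.03, in the same order. For interneurons they were 3.42 to 5.84, 5.86 and 5.82, and 9.47 and 9.45. The part of astroglia and of neurons in the fall of Ntrk2 was not tested. Without MB_1207 the log2 difference of Ntrk2 was -1.88 against the CGNPs and -2.52 against WC.

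Among the MBs, the SD of the gene value was 0.99 for Unc5c (n = 8), 0.80 for Plxna2, 0.18 for Dcc and 0.17 for Sema6a, with a median of 0.27 over 11147 genes with a mean level above 3. Probe sets at or close to the floor lower the SD of a gene value, so these give no order of the members. By single probe sets the SD was 0.46 for Sema6a 1436458_at and 0.28 for each of the Dcc probe sets 1440487_at and 1441572_at. It was 1.28 for Ntrk2 1435196_at, 1.12 for Cxcl12 1448823_at and 1.01 for Bdnf 1422168_a_at, beside 0.96 and 1.10 for those of Unc5c. MB_630 was highest of the 8 for Cxcl12, Plxna2, Unc5b, Unc5c and Ntrk2 and lowest for Sema6a. MB_1207 was lowest for Cxcl12, Cxcr4, Unc5b, Unc5c and Ntrk2 and highest for Sema6a. These are the tumors at the ends of several marker means, and the part of other cells in this order was not tested. No call between MBs and either normal tissue was lost without MB_630, MB_706 or MB_1207, except that of Plxna2 against WC. MB_1206 carries complex rearrangements of chromosomes 6 and 13, the chromosomes of Cxcl12 and Ntrk2, and its levels of these genes, 3.40 and 4.34, lay within the range of the other MBs.

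**Figure D4:**
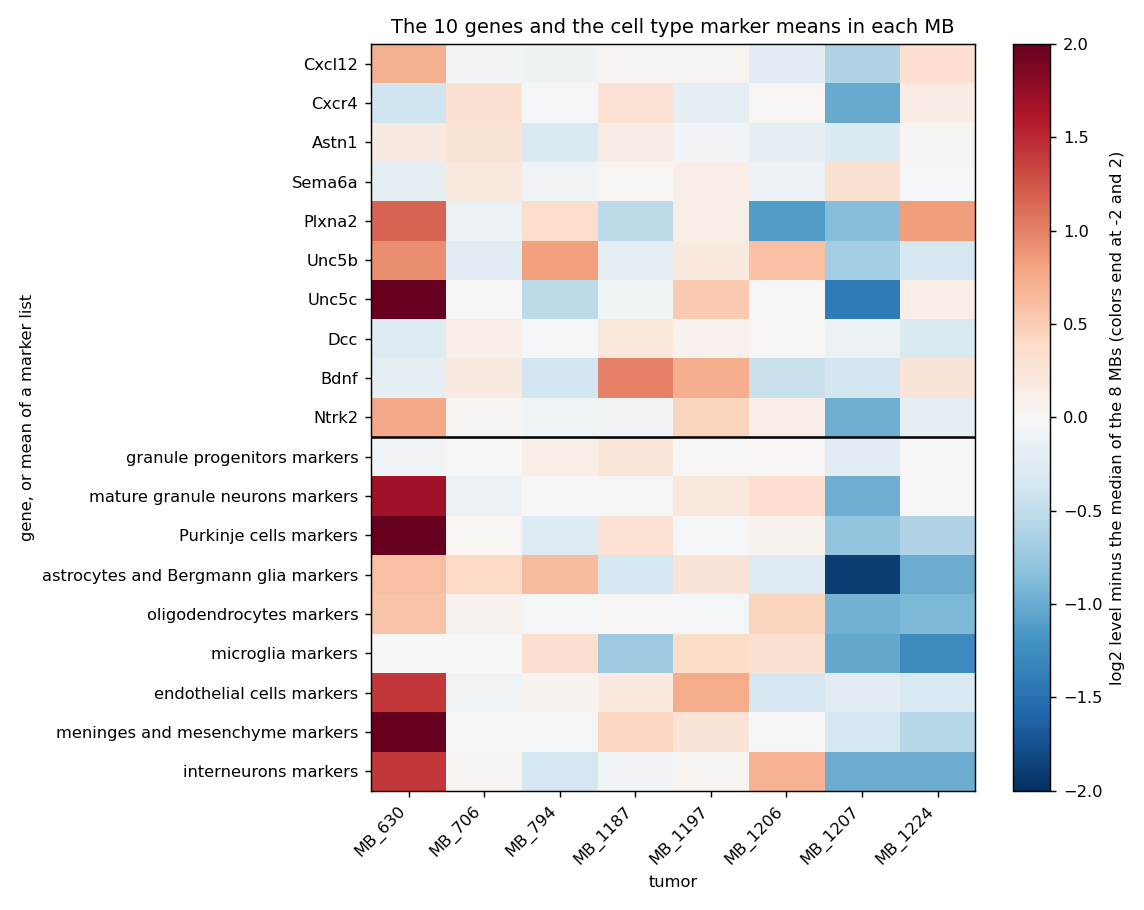
Log2 level of each gene (upper rows) and mean level of each cell type marker list (lower rows) in each MB (columns), minus the median of the 8 MBs (color, ending at -2 and 2). MB_630 is above the median for Cxcl12, Plxna2, Unc5b, Unc5c and Ntrk2 and for several marker means, and MB_1207 is below it for most rows.

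Across the 8 MBs, 5 ligand and receptor or receptor pairs were correlated, and none passed (exact permutation tests, two-sided). Cxcl12 and Cxcr4 had Pearson's r = 0.32 (exact permutation p = 0.414, adjusted p = 0.745) and Spearman's rho = 0.19 (exact permutation p = 0.665, adjusted p = 1), and r = 0.17 without MB_630 and MB_1207. Bdnf and Ntrk2 had r = 0.23 (exact permutation p = 0.596, adjusted p = 0.745) and rho = 0.10 (exact permutation p = 0.825, adjusted p = 1), and r = 0.15 without MB_1187 and MB_1197. For the other pairs r was -0.45 (Sema6a and Plxna2, exact permutation p = 0.254, rho = -0.40), -0.28 (Unc5c and Dcc, p = 0.525, rho = -0.24) and -0.11 (Unc5b and Dcc, p = 0.792, rho = 0.00), with -0.24, 0.01 and 0.37 without the tumors farthest from the median, and adjusted p-values of 0.745 to 0.792 for r and of 1 for rho.

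Other genes of the same pathways gave a mixed picture: of 85 measured, 14 rose and 30 fell in the MBs against the CGNPs, and 20 rose and 30 fell against WC. Of all genes tested, 18.7% rose and 18.6% fell against the CGNPs, and 22.2% rose and 21.8% fell against WC. Their median log2 difference was -0.26 and -0.21. The lists were chosen with earlier results of these arrays known. The neural adhesion genes came closest to a common direction, with all 7 lower than in the CGNPs and 6 of 7 lower than in WC. L1cam, which encodes an axonal adhesion molecule, averaged 4.92 ± 0.43 (SD, n = 8) in the MBs, against 8.39 and 8.50 in the CGNPs and 6.12 and 6.23 in WC. The contactin gene Cntn1 averaged 7.48 ± 0.85 (SD, n = 8), against 10.27 and 10.05 in the CGNPs and 10.98 and 11.07 in WC.

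In the netrin list of 13, the MBs had 3 higher and 3 lower genes against the CGNPs, and 3 higher and 4 lower ones against WC. These 6 and 7 of 13 stand beside 37.3% and 44.0% of all genes called, and nothing particular to the list is read from them. Draxin, which encodes a secreted repellent that binds DCC, averaged 8.71 ± 0.47 (SD, n = 8) in the MBs, against 5.42 and 5.27 in the CGNPs and 3.06 and 2.80 in WC, a difference of 3.36 (adjusted p = 2.7e-05 from limma) and of 5.78 (adjusted p = 3.5e-07). Neo1, which encodes the DCC relative neogenin, was higher by 1.87 and 1.83 (adjusted p = 0.00031 and 0.00026). The other UNC5 genes were low in the tumors: Unc5d differed by -1.16 from the CGNPs and -1.90 from WC, and Unc5a was at the floor in all MBs and both CGNP samples, with 3.81 and 3.03 in WC. The netrin gene Ntn4 was lower than in the CGNPs (difference -1.83, adjusted p = 5.9e-05) and did not pass against WC.

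Of 18 semaphorin, plexin and neuropilin genes, 3 rose and 4 fell in the MBs against the CGNPs, and 4 rose and 5 fell against WC. These 7 and 9 of 18 are close to the 37.3% and 44.0% of all genes called, so they are not a result about the list. The membrane-anchored semaphorin Sema7a averaged 8.63 ± 0.52 (SD, n = 8), against 4.92 and 4.98 in the CGNPs and 7.47 and 7.70 in WC. Plxnb2, the plexin known for its part in granule progenitor proliferation, was higher by 1.50 (adjusted p = 0.00392 from limma) and 1.88 (adjusted p = 0.00074). Sema3a and Sema6d were lower in both comparisons.

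Among 7 neurotrophin genes, 2 were higher and 2 lower in each comparison of the MBs. Over all genes 37.3% and 44.0% were called, and nothing particular to this short list is read from its counts. Ngfr, the p75 neurotrophin receptor, averaged 4.47 ± 0.37 (SD, n = 8) in the MBs, against 2.74 and 2.65 in the CGNPs and 2.71 and 2.74 in WC. Ntrk3, the receptor of neurotrophin-3, was higher than in the CGNPs by 1.51 (adjusted p = 0.0101 from limma) and differed from WC by -0.49 (adjusted p = 0.378). Sorcs1, which encodes a sortilin-related receptor, was close to the floor in the MBs (2.20 to 2.34), with 4.82 and 5.18 in the CGNPs.

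The reelin pathway, which positions migrating neurons, had 2 of 5 genes lower than in the CGNPs and 4 of 5 lower than in WC, and none higher. Over all genes, 18.6% and 21.8% were lower, and a list of 5 genes is short. Its adaptor gene Dab1 averaged 3.96 ± 0.43 (SD, n = 8) in the MBs, against 7.26 and 7.62 in the CGNPs and 7.30 and 7.12 in WC (log2 differences -3.47 and -3.25, adjusted p = 1.3e-05 in each, limma). Reln itself was lower than in the CGNPs (difference -0.77, adjusted p = 0.0294) and differed from WC by -0.08 (adjusted p = 0.964).

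Of 17 genes for polarity and radial migration, 2 rose and 7 fell in the MBs against the CGNPs, and 6 rose and 5 fell against WC. Over all genes, 18.7% rose and 18.6% fell against the CGNPs, and 22.2% rose and 21.8% fell against WC. The polarity gene Pard3, whose product promotes adhesion of granule cells as they leave the external layer, averaged 5.68 ± 0.44 (SD, n = 8) in the MBs, against 3.17 and 3.15 in the CGNPs and 3.54 and 3.99 in WC. Dcx, which encodes a microtubule protein of migrating neurons, lay between the normal tissues like Sema6a, at 6.62 ± 0.14 (SD, n = 8), against means of 9.04 in the CGNPs and 3.13 in WC.

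Slit and Robo genes included none higher and 2 of 6 lower than in the CGNPs, and 2 higher and none lower than in WC. Over all genes, 18.7% were higher and 18.6% lower than in the CGNPs, and 22.2% and 21.8% than in WC. These shares stand beside each list of this paragraph, and nothing particular to such short lists is read from their counts. The receptor gene Robo2 averaged 8.30 ± 0.35 (SD, n = 8) in the MBs, against 9.49 and 9.16 in the CGNPs and 2.86 and 2.79 in WC. In the ephrin list, 1 of 7 genes was higher and 3 were lower in each comparison of the MBs, with Efnb2 lower (differences -2.47 and -0.62) and Efnb1 higher (0.60 and 1.60). Of the 5 chemokine genes, 3 were higher than in the CGNPs and none lower, and 2 were higher and 1 lower than in WC. They include Gnai2 and Arrb2, whose products act in signaling by CXCR4 and many other receptors, with differences of 1.43 and 1.27 from the CGNPs (adjusted p = 0.00303 and 0.00064 from limma).

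**Figure D5:**
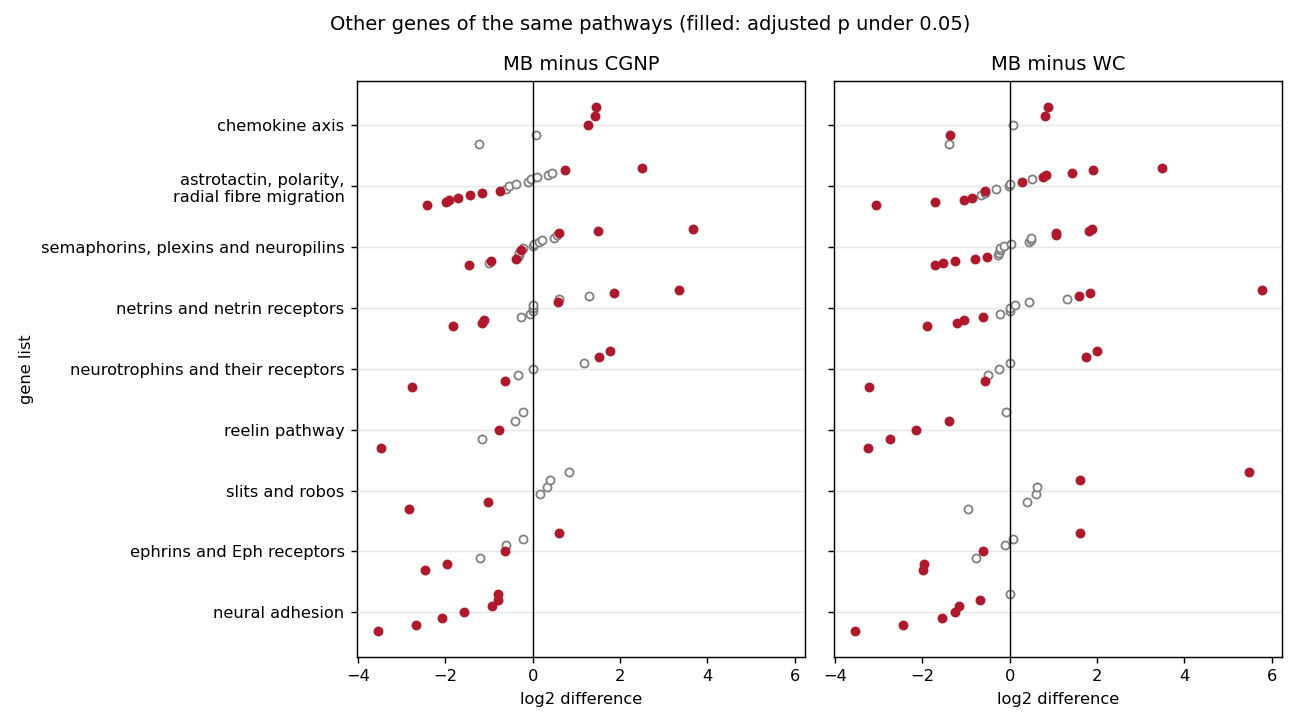
Log2 difference (x axis) of each of 85 other pathway genes, by list (y axis), between MBs and CGNPs (left) and between MBs and WC (right), with filled points for an adjusted p under 0.05. The 7 neural adhesion genes all lie below 0 against the CGNPs, and Draxin, at 3.36 and 5.78, is the rightmost netrin gene in each panel.

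Some genes followed the members closely over the 12 samples, given here as a description, since the points share their 3 groups. Cxcr4 was most like Cdca4 and Atoh1 (Pearson's r = 0.997 each) and Spin4 (0.996). Dcc was most like Mex3a (0.997), Insm1 (0.995) and the proliferation marker Mki67 (0.993). Bdnf was most like Rab6b (0.989), Zcchc12 and Gabra4 (0.987 each), and Ntrk2 most like Nicn1 (0.991), Cntn1 (0.989) and Nrxn3 (0.988). Plxna2 was most like Plcl1 (0.977) and L1cam (0.959), Unc5c most like Lratd1 and Rgs17 (0.985 each), Unc5b most like Itfg1 (0.986), Sema6a most like Cyp51 (0.992), and Cxcl12 most like Pcdh9 (0.991).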

How the data were processed

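According to the study's methods, the authors normalized the arrays by GCRMA with the affy package. The deposited values are log2 levels, 1 for every probe set on every array. The 45101 probe sets include 64 controls, which were dropped. In the probe annotation, 34945 probe sets have 1 gene, 932 have several and 9160 have none. This gave 18193 genes, of which 290 had only probe sets with the suffixes s or x and took the mean of those. Groups came from the sample labels. MBs, CGNPs and WC were compared in a fit with 3 groups by limma 3.58.1 in R 4.3.3 (functions lmFit and eBayes). Tests were two-sided, and p-values were adjusted by Benjamini-Hochberg over all genes at a threshold of 0.05, with no filter on level. The fit was also run on simulated data whose genes vary independently, unlike these arrays, so that run does not vouch for the p-values. Close to the floor means within 0.5 of 2.20. The number of arrays limits the precision, and array values carry no read depth. The members and lists were chosen with earlier results of these data known. Besides the 10 members, the text names genes from each pathway list among the 2 largest rises and the 2 largest falls past the test in each comparison, the genes most correlated with each member called in a comparison (predicted gene models left out), and up to 3 genes of a marker list. Of 91 pathway genes named, 85 were measured. Alternatives were all probe sets of a gene, its probe set of highest signal, arrays set to a common median, quantile normalization, eBayes with trend and robust, a minimum level, the methods' t-test with equal variance, both normal tissues pooled, and leaving out each sample in turn. Averaging only probe sets above 5 in at least 2 samples was added after seeing the data. Promoters came from RefSeq on GRCm38.p6, also used for chromosomes, and figures were drawn with matplotlib 3.10.9.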

Additional observations from a re-analysis of the deposited data

Results flagged for a closer look

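Among the 8 MBs, 62 results were examined for a tumor that stands apart from the others by Dixon's criterion, and 9 had one, where chance gives about 1 in 20. None of the 10 members was among them. MB_706 stood apart in the difference between control probe sets at the 3′ and the 5′ end, at 2.93 with the next MB at 0.82. MB_630 was the highest for the mean of the Purkinje cell markers (6.23, next 4.15), for the mean of the markers of meninges and mesenchyme (5.96, next 4.01), for Sema3a (3.11, next 2.87) and for Sorcs1 (2.34, next 2.24, both close to the floor), and the lowest for Sema7a (7.54, next 8.51). MB_1207 was the lowest for Dab1 (3.01, next 3.77) and for Sorcs3 (2.22, next 2.28, both close to the floor). MB_1197 was the highest for Unc5d (3.26, next 2.63).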

How the results depend on the processing

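Of all genes, 6792 were called between MBs and CGNPs, 8009 between MBs and WC and 5180 between CGNPs and WC, and with 1 sample left out the counts ran from 5339 to 6865, from 6603 to 7981 and from 4112 to 5394. Where the sample left out leaves 1 in its group, that sample is assumed to vary like the others. With the methods' t-test after Benjamini-Hochberg adjustment, 2211 genes were called between CGNPs and WC, and the differences of Cxcr4 and Bdnf between them had an adjusted p of 0.0857 and 0.0963. With both normal tissues pooled, which is another comparison by construction, the difference of Astn1 from WC turned to -0.05 (adjusted p = 0.901 from limma) and that of Sema6a to -0.60 (adjusted p = 0.344). All 120 member differences against the CGNPs kept their call with a sample left out, as did 110 of 120 against WC, where the other 10 are Plxna2, and 118 of 120 between CGNPs and WC. Under the other settings, 88 of 90, 86 of 90 and 76 of 80 kept it. With the probe set of highest signal, Plxna2 differed from WC by -1.21 (adjusted p = 0.135). No paired analysis was possible because the groups share no mouse number.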
